A study of Rattus norvegicus with 12 samples.

Results

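Gene expression in the right trigeminal ganglion was compared between female Sprague Dawley rats carrying a capsule with 40% estradiol (E2) and rats carrying a vehicle capsule. The labels call the 40% capsule a therapeutic level, and the vehicle capsule held 100% cholesterol. Both were worn for 1 week. The comparison uses the 3 libraries labelled 40% E2 and the 3 labelled vehicle, which are 6 of the 12 in the series. The other 6 libraries carried 5% E2 (3 libraries, a diestrus level) or 20% E2 (3 libraries, a proestrus level), and they enter through the choice of genes by level, the shared estimate of the spread and as dose references. The labels give no age, estrous stage, surgery or serum estradiol for any group.

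Sensory neurons that serve the face, mouth and meninges have their cell bodies in the trigeminal ganglion, where satellite glia wrap them and Schwann cells, vessels, fibroblasts and immune cells lie between them. Estradiol acts mainly through nuclear estrogen receptors, which bind DNA and alter transcription in the cells that hold them. The series asks how the dose of estradiol shapes the response of these neurons to serotonin. RNA from the whole ganglion mixes all of its cells, so fewer cells of a type and less RNA per cell cannot be told apart.

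Levels are given as FPKM, the fragments of a gene relative to its model's length and the library's depth, for 32545 Ensembl identifiers of rat genes. None of these identifiers matched the reference table of 47357 genes, and the files do not pair them with names. Receptor, neuropeptide, channel and glial genes, and the markers that would check the tissue, were therefore not analysed here. Genes are given below by identifier (the 2 leading genes in each direction) or by the length of their model in bases, which was recovered from the values. That length is the smallest whole number that fits.

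A gene was tested if it reached 1 FPKM in at least 3 of the 12 libraries (14781 genes). The description keeps to the 9927 well-counted genes, those averaging at least 5 FPKM over the 12 libraries, which held 96.8% of all recovered fragments. The median well-counted gene averaged 636 fragments per library. Depth ran from 13281981 to 13801880 recovered fragments at 40% E2 and from 13559866 to 16978830 in vehicle, so the 40% E2 libraries were mostly shallower. Vehicle replicate 1 stood apart. Over the well-counted genes, its mean distance from the other 11 libraries was 0.379 (root mean square, log2(FPKM + 1)), against 0.310 to 0.345 for the rest. The median standard deviation within a group was 0.13 in vehicle and 0.11 at 40% E2 on that scale.

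At 40% E2, no well-counted gene passed the threshold against vehicle (limma-trend, adjusted p under 0.05), in either direction, nor did any of the 14781 genes tested (0%). Over all tested genes, 867 (5.87%) had an unadjusted p under 0.05 by limma, 2.83% with higher and 3.04% with lower values at 40% E2. The smallest adjusted p among well-counted genes was 0.344. By limma-trend, 584 well-counted genes (5.88%) had an unadjusted p under 0.05, 257 (2.59%) with higher values at 40% E2 and 327 (3.29%) with lower values. This count moved with single libraries, to 892 of 9927 without vehicle replicate 3, 794 without vehicle replicate 2 and 456 (4.59%) without vehicle replicate 1. Over all 14781 genes tested, the counts without vehicle replicates 3, 2 and 1 were 1241, 1100 and 721. Limma's voom on recovered fragments also gave 0 calls, with 535 well-counted genes (5.39%) at an unadjusted p under 0.05. In 997 well-counted genes (10.0%) the 3 libraries at 40% E2 all lay on one side of the 3 vehicle libraries, higher in 464 (4.67%) and lower in 533 (5.37%). Among all tested genes these shares were 10.1%, 5.01% and 5.09%. No gene named below therefore counts as changed against vehicle, and the values are given as a description.

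Most well-counted genes were measured closely enough to bound their difference between these libraries. The median standard error was 0.11 on the log2(FPKM + 1) scale, and the middle 90% of log2 differences ran from −0.24 to 0.25. For 8784 of the 9927 genes (88.5%), the 95% confidence interval of the difference lay within 1.5-fold either way, and for 96.5% it lay within 2-fold. These intervals treat each gene alone and rest on the spread among these libraries, which may be technical. They bound the ratio of FPKM + 1, which understates the ratio of FPKM for low genes. Among the 745 genes averaging 100 FPKM or more, 94.5% had an interval within 1.5-fold, against 84.7% of the 5422 genes between 5 and 20 FPKM. Short models were measured less closely. Only 18.6% of the 167 well-counted genes with a model under 200 bases had an interval within 1.5-fold, against 93.1% of the 8607 genes with 1000 bases or more.

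**Figure D1:**
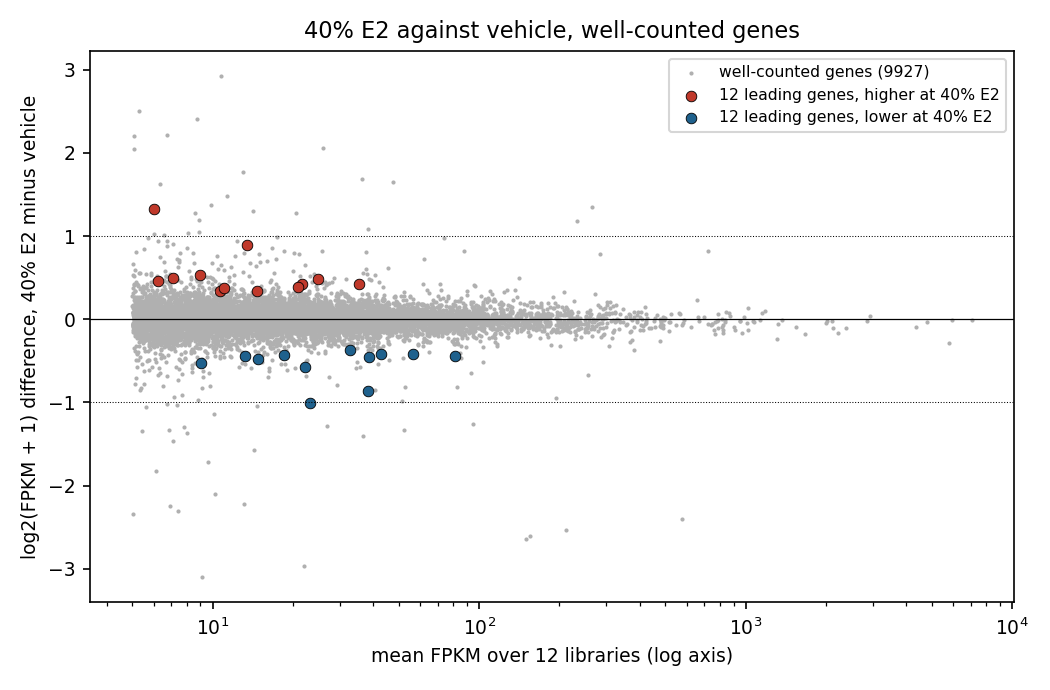
Each point is 1 of the 9927 well-counted genes, with its mean FPKM over 12 libraries on a log axis and its log2(FPKM + 1) difference between 40% E2 and vehicle on the vertical axis. The 12 leading genes in each direction are marked; none passed the threshold, and the dotted lines mark differences of 1 and −1, beyond which 54 genes lie.

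The leading genes are the well-counted ones of smallest p whose groups did not overlap, 12 in each direction. Non-overlap was part of how they were chosen and lends them no support. ENSRNOG00000014092, a 649-base model, had 27.5, 30.1 and 30.3 FPKM in vehicle and 36.7, 43.0 and 39.6 FPKM at 40% E2. All 3 libraries at 40% E2 were above the highest vehicle library. The means were 39.8 ± 3.14 FPKM at 40% E2 (SD, n = 3) and 29.3 ± 1.55 in vehicle, a 1.36-fold ratio that corresponds to 0.43 ± 0.08 on the log2 scale (SE, limma adjusted p = 0.344). Its means at 5% and 20% E2 were 34.3 and 38.3 FPKM, and 40% E2 differed from 20% E2 by 0.05 (limma adjusted p = 1), a difference smaller than its standard error.

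ENSRNOG00000012490, a 2248-base model, had 10.4, 15.2 and 10.8 FPKM in vehicle and 21.9, 21.2 and 26.3 FPKM at 40% E2. The ratio of the means was 1.91, at 23.2 ± 2.76 FPKM (SD, n = 3) at 40% E2 against 12.1 ± 2.65. The log2 difference from vehicle was 0.89 ± 0.18 (SE, limma adjusted p = 0.344). Its values stood for 658 to 799 fragments per library at 40% E2 and 406 to 458 in vehicle. The other doses did not lie on a line between these groups. The 5% E2 libraries had 11.3, 8.29 and 14.1 FPKM, and the 20% E2 libraries 8.12, 6.64 and 7.63 FPKM, below every vehicle library. Tested directly, 40% E2 was higher than 20% E2 by 1.51 ± 0.18 (limma adjusted p = 0.0380). It was the 1 gene called in that comparison, among 9927 well-counted (0.0101%) and 14781 tested genes (0.00677%). Against 5% E2 (1.01, limma adjusted p = 0.451) it was not called. The 1 gene of 14781 (0.00677%) called between 40% and 5% E2 had a 1743-base model, averaged 4.87 FPKM and so was not well-counted. It was lower at 40% E2 by −2.43 (limma adjusted p = 0.0423) and is given after its values were seen. The call against 20% E2 was lost without any 1 of the 40% or 20% E2 libraries, with log2 differences of 1.42 to 1.57 and adjusted p of 0.0947 to 0.361. It was also lost without vehicle replicate 1 (0.0572), vehicle replicate 3 (0.0923) or 5% E2 replicate 1 (0.115). The same held with no filter on low values (0.0992) and with the replicate number as a block (0.193).

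ENSRNOG00000010208, a 740-base model, had 30.2, 22.9 and 26.4 FPKM in vehicle and 19.8, 17.3 and 15.2 FPKM at 40% E2. The highest library at 40% E2 was below the lowest in vehicle. The mean was 17.5 ± 2.31 FPKM at 40% E2 (SD, n = 3) against 26.5 ± 3.67, with a difference of −0.57 ± 0.11 on the log2 scale (SE, limma adjusted p = 0.344). Its means at 5% and 20% E2 were 24.3 and 20.5 FPKM. The direct differences of 40% E2 from 5% E2 (−0.46, limma adjusted p = 0.869) and from 20% E2 (−0.23, adjusted p = 1) did not pass.

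ENSRNOG00000013162, a 2089-base model, had 10.4, 11.1 and 11.0 FPKM in vehicle and 6.78, 8.54 and 6.49 FPKM at 40% E2. The vehicle libraries lay close together and the 40% E2 libraries were more spread. The means were 7.27 ± 1.11 FPKM (SD, n = 3) and 10.8 ± 0.384 FPKM, with a difference of −0.52 ± 0.10 on the log2 scale (SE, limma adjusted p = 0.344). The 5% and 20% E2 means, 8.71 and 9.32 FPKM, lay between those of vehicle and 40% E2.

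**Figure D2:**
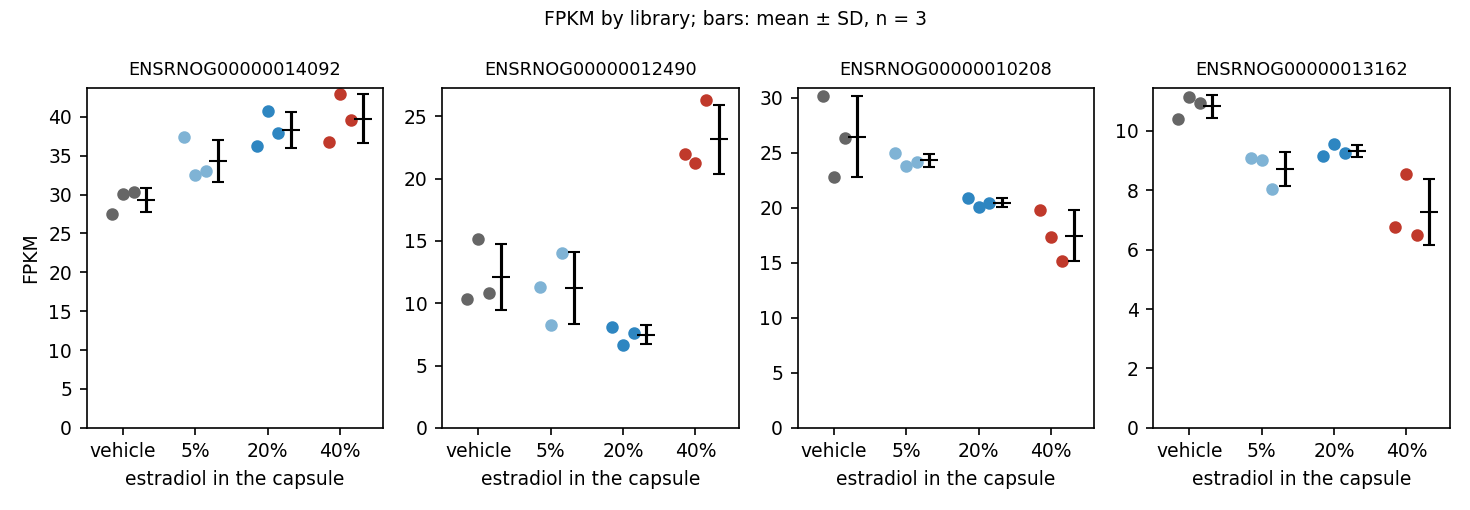
FPKM of the 2 leading genes with higher and the 2 with lower values at 40% E2, by library, in the 4 capsule groups; black bars are the mean ± SD of 3 libraries. ENSRNOG00000012490 stands at 21.2 to 26.3 FPKM in the 3 libraries at 40% E2 and at 15.2 or less elsewhere, while the other 3 genes have intermediate means at 5% and 20% E2.

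The 12 leading genes with higher values at 40% E2 averaged 6.01 to 35.4 FPKM over the 12 libraries, and their 40% E2 means were 1.28 to 3.14 times those in vehicle. The highest ratio belonged to a model of only 99 bases, counted from 3 to 5 fragments in each vehicle library and 8 to 12 at 40% E2. Without it the highest ratio was 1.91, that of ENSRNOG00000012490. The gene with a 2266-base model had 4.49, 5.29 and 5.36 FPKM in vehicle and 6.87, 7.68 and 7.36 FPKM at 40% E2. At 20% E2 it had 6.88, 7.22 and 6.97 FPKM, overlapping the 40% E2 libraries. Another, of 555 bases, was likewise close at both upper doses, with 8.59, 9.93 and 8.01 FPKM at 40% E2 and 9.45, 8.28 and 7.80 at 20% E2. Its 3 vehicle libraries had 5.59, 5.50 and 6.84 FPKM, and 5% E2 averaged 5.16 FPKM. In a 1630-base model the other 3 groups had close means, with 12.7, 13.7 and 14.2 FPKM at 40% E2 and means of 10.2 in vehicle, 10.4 at 5% E2 and 10.1 at 20% E2. The direct difference between 40% and 20% E2 for this gene was 0.40 ± 0.09 (SE) and did not pass (limma adjusted p = 1).

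The 12 leading genes with lower values at 40% E2 were expressed at 9.03 to 81.4 FPKM on average, and their vehicle means were 1.30 to 2.18 times those at 40% E2. All had models of 740 bases or more, and every library held at least 152 fragments of each. The most abundant, with a 5825-base model, had 98.6, 90.0 and 102 FPKM in vehicle and 62.2, 73.0 and 78.3 FPKM at 40% E2. Its values stood for 4861 to 6158 fragments per library at 40% E2 and 7035 to 10014 in vehicle. Its log2 difference was −0.44 ± 0.09 (SE, limma adjusted p = 0.344). A 4765-base model had 59.0, 39.1 and 53.8 FPKM in vehicle and 23.3, 25.2 and 33.6 FPKM at 40% E2. Its vehicle mean was 1.85 times the 40% E2 mean, and the 5% and 20% E2 means were 36.7 and 38.2 FPKM. The widest difference in the set was in a gene with a 2015-base model. It had 48.3 FPKM in vehicle replicate 1, 21.7 and 31.8 FPKM in the other vehicle libraries, and 15.4, 13.5 and 17.9 FPKM at 40% E2. Its log2 difference was −1.01 with all libraries and −0.73 without vehicle replicate 1. The values of a 1613-base model were nearly equal at 40% E2, 50.4, 49.4 and 49.8 FPKM, below 77.4, 59.8 and 64.8 FPKM in vehicle.

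**Figure D3:**
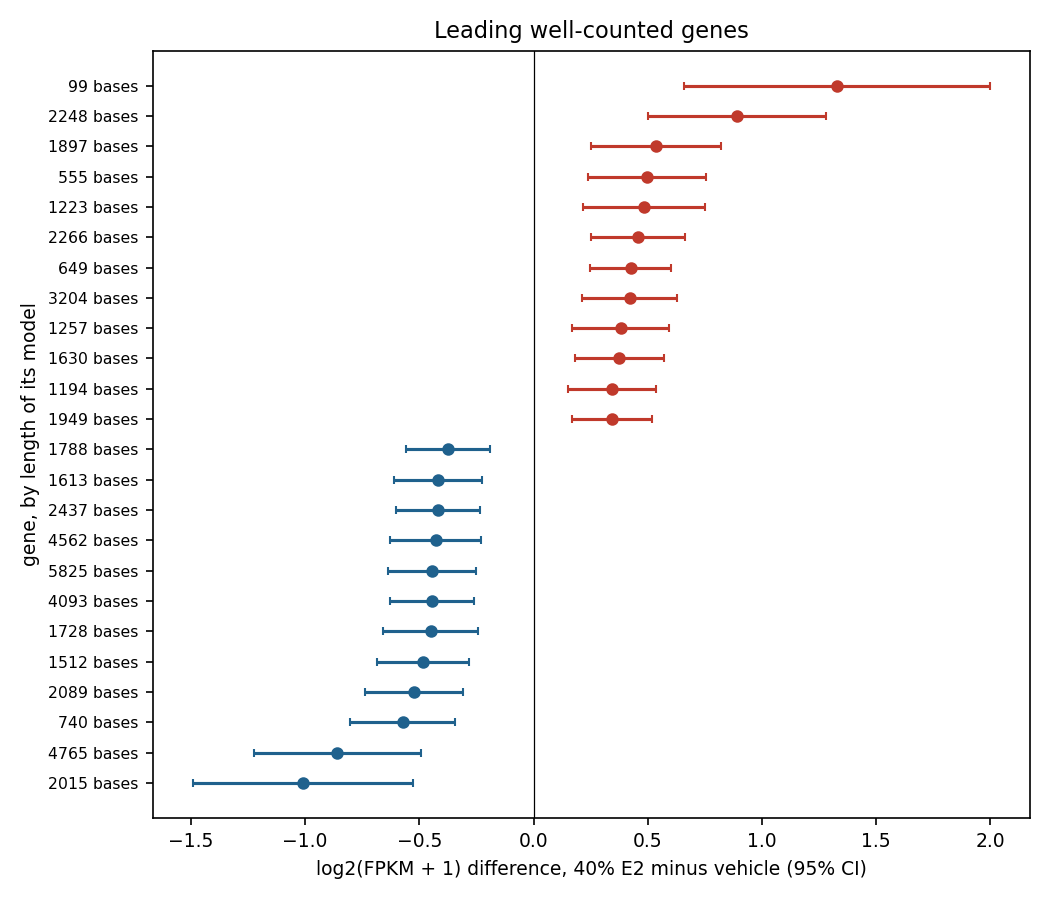
Log2(FPKM + 1) difference between 40% E2 and vehicle, with its 95% confidence interval, for the 24 leading well-counted genes, each labelled by the length of its model. The intervals exclude 0 because the genes were taken by smallest p; the differences run from −1.01 to 1.33.

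Without vehicle replicate 1 the differences of the 24 leading genes ran from −0.74 to 1.29, with a smallest limma adjusted p of 0.474. By voom their smallest adjusted p was 0.212. Both rest on the libraries that chose the genes and lend them no support. The groups compared with vehicle share the vehicle libraries, so only direct tests set the doses against each other. Of the 24 genes, 1 passed the threshold between 40% and 20% E2 and 0 between 40% and 5% E2, with 6 and 17 at an unadjusted p under 0.05 by limma. Over all well-counted genes those shares were 2.58% and 4.48%. The 24 genes were picked by their 40% E2 values, which enter these tests too, so nothing is read from the counts.

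Differences beyond 1 unit on the log2 scale were seen in 54 well-counted genes (0.544%, against 1.40% of all genes tested), 25 with higher and 29 with lower values at 40% E2. In 18 of them the 2 groups did not overlap, against 10.0% of all well-counted genes, but the 54 were picked for a large difference between the same groups and nothing is read from this count. The share was higher among short models, at 8.38% of models under 200 bases beyond 1 unit, 2.43% of those from 200 to under 1000 bases and 0.139% of longer ones. Spread within a group accompanied most of these differences. In 44 of the 54 genes (81.5%) the libraries of vehicle, of 40% E2 or of both differed by 5-fold or more among themselves, as they did in 1.20% of all well-counted genes. A value of 0 beside higher ones counted as such a spread, and 14 of the 54 had models under 200 bases. A single extreme library can give both the spread and the difference by which the 54 were picked, so nothing is read from this share either.

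A gene with a 483-base model was among the 10 without such spread. It had 110, 130 and 131 FPKM in vehicle and 48.7, 50.6 and 53.4 FPKM at 40% E2, with a difference of −1.26 ± 0.30 on the log2 scale (SE, limma adjusted p = 0.538). The 3 libraries at 40% E2 agreed closely and were below every other library. At 5% E2 it had 93.0, 143 and 64.0 FPKM and at 20% E2 106, 142 and 65.1 FPKM, so 1 library in each of these groups lay nearer to the 40% E2 level. It was the 1 well-counted gene called when the 6 compared libraries were fitted alone (limma adjusted p = 0.0142), and it was named after its values were seen. A 786-base model had 189, 86.5 and 138 FPKM in vehicle and 246, 361 and 428 FPKM at 40% E2. Its 2.50-fold ratio corresponded to a difference of 1.35 ± 0.48 on the log2 scale (SE, limma adjusted p = 0.793), and a 20% E2 library, at 543 FPKM, exceeded all 3 at 40% E2. A 657-base model had the lowest log2 difference of all well-counted genes, −3.10 ± 1.20 (SE, limma adjusted p = 0.828). It had 19.8, 7.37 and 18.4 FPKM in vehicle and 0.680, 0.662 and 0.902 FPKM at 40% E2. It also lay under 1 FPKM in 1 library at 5% E2 (0.564) and in 2 at 20% E2 (0.562 and 0.980), against 13.3 to 28.7 in the others of those groups.

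Sets of genes beyond 1 unit shared their highest and lowest library, or the libraries under 0.5 FPKM. This grouping was made after the values were seen and is given with no test. A set of 6 had models of 429 to 1107 bases. Of all 12 libraries, vehicle replicate 3 was the highest in each and 40% E2 replicate 2 the lowest. These extremes were found in 31 of the 9927 well-counted genes. The libraries between them were not in the same order in all 6. The log2 differences of the 6 ran from −2.97 to −2.22 (limma adjusted p of 0.793 to 0.842), with groups that did not overlap. The set was picked by values of these groups, so nothing is read from that non-overlap. The most abundant of the 6, a 556-base model, had 1113, 527 and 1654 FPKM in vehicle and 386, 57.6 and 290.2 FPKM at 40% E2. At 5% E2 it had 365, 1004 and 289 FPKM and at 20% E2 154, 821 and 278. These lay within that range by the choice of the set.

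Another 3 genes, with models of 598 to 1131 bases, were under 0.5 FPKM in the same 5 libraries and at 5.46 to 30.9 FPKM in the other 7. The 5 included 2 of the 3 vehicle libraries and none at 40% E2. The gene with a 1089-base model was listed at 0 in vehicle replicates 1 and 3 and had 21.1 FPKM in replicate 2. At 40% E2 it had 15.3, 17.7 and 30.9 FPKM. This gene had the highest log2 difference of all well-counted genes, 2.93 ± 1.59 (SE, limma adjusted p = 0.859), and its groups overlapped.

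**Figure D4:**
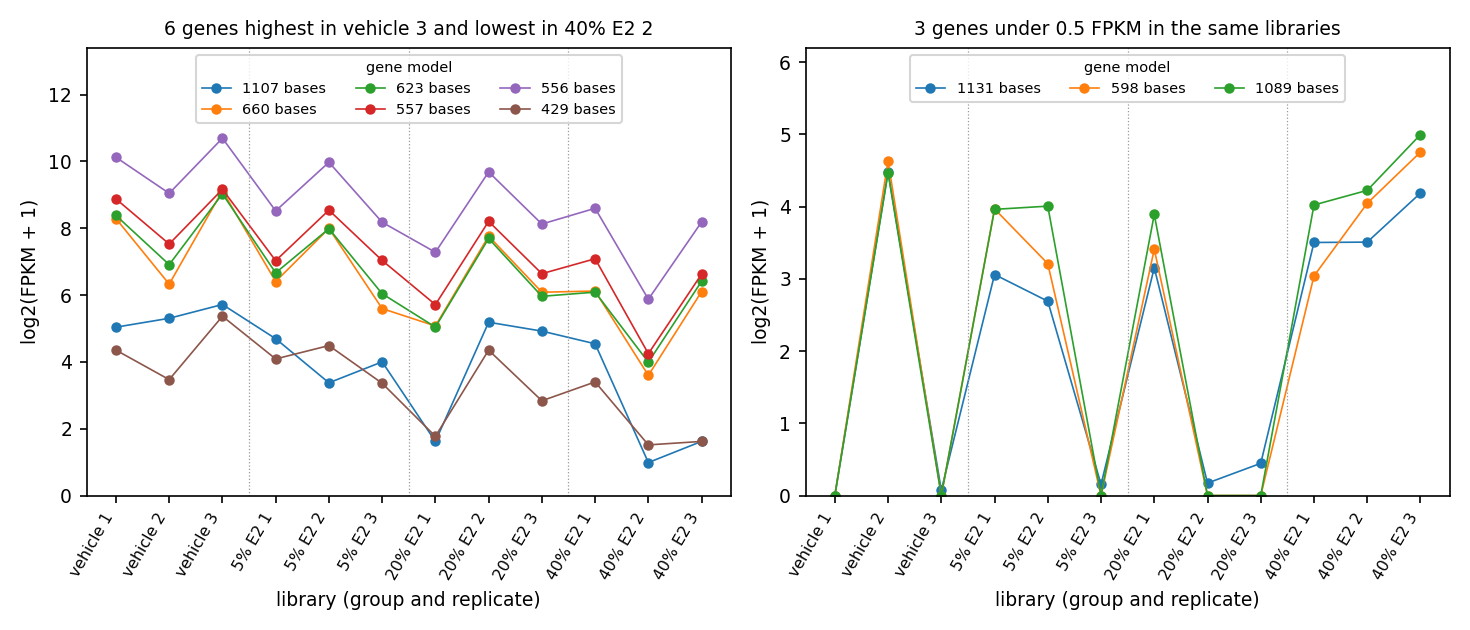
Log2(FPKM + 1) in each of the 12 libraries for the 6 genes that are highest in vehicle replicate 3 and lowest in 40% E2 replicate 2 (left) and the 3 genes under 0.5 FPKM in the same 5 libraries (right); each line is 1 gene and joins libraries that have no order within a group. On the left every gene peaks in vehicle replicate 3 and has its lowest value in 40% E2 replicate 2, and on the right values switch between near 0 and at least 5.46 FPKM.

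The 20 most abundant genes, averaging 1148 to 7068 FPKM, showed small differences. Their log2 differences ran from −0.29 to 0.10, 17 negative and 3 positive. The median over the 745 genes averaging 100 FPKM or more was −0.017, and nothing is read from the signs. Of these 745, 6 (0.805%) lay beyond 1 unit on the log2 scale, against 0.544% of all well-counted genes. The gene of highest mean, with a 1545-base model, had 6964 ± 154 FPKM in vehicle (SD, n = 3) and 6971 ± 744 at 40% E2. In 1 of the 20, with a 1864-base model, the groups did not overlap, against 7.92% of the genes averaging 100 FPKM or more. It had 6510, 6248 and 6763 FPKM in vehicle and 4892, 6040 and 5104 FPKM at 40% E2, which differed by −0.29 ± 0.10 on the log2 scale (SE, limma adjusted p = 0.781).

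Below the level of well-counted genes, the smallest p of all genes tested belonged to a 79-base model with 10.2, 5.66 and 4.50 FPKM in vehicle. At 40% E2 it had 0.943 FPKM in replicate 1 and was listed at 0 in the other 2. These values stood for 6 to 14 fragments per vehicle library and 1 fragment in all at 40% E2. Its limma adjusted p was 0.0737 with all libraries and 0.0280 without 40% E2 replicate 1, which gave 1 call.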

How the data were processed

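Per the labels, 12 libraries were made from ganglion RNA, 3 per capsule group. The tools listed in the submitters' processing notes, with no version or role, are CASAVA, fastp, HISAT2, featureCounts and DESeq2. For genome build, annotation and strand setting, nothing is given in the sources used here, so reads of overlapping, antisense or near-identical genes may be misassigned. Per the names of the deposited files, the authors computed the values as FPKM. A deposited table of the whole series repeats these values with its column names shifted and was not used.

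Limma 3.58.1 (R 4.3.3) was run on log2(FPKM + 1) with 1 fit of the 4 group means over all 12 libraries, a variance trend and robust moderation. P-values were adjusted by Benjamini-Hochberg over 14781 genes within each comparison, with a threshold of 0.05. Fold changes on this scale understate those of low genes. The labels do not tie each library to an animal of its own. P-values and confidence intervals therefore measure only how far these libraries spread, which may be technical. Whole fragments were recovered from FPKM for all 21071 genes above 0 in at least 2 libraries (100%; largest deviation from a whole number 0.00020, which is set by the accepted tolerance). Fragments have no molecular identifiers, so copies of the same molecule cannot be told apart. Fragment numbers therefore cover counting error at most. Every pair of replicates in the 2 groups differed by more than the sampling noise of independent fragments (chi-square divided by its degrees of freedom, at least 7.72). The fit was also run on simulated fragments with known changes. These had the same relative spread beyond sampling noise in all genes, unlike the data, and nothing is read from that run.

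Named are the genes past the threshold, of which there were 0, and the leading genes in each direction by smallest p with groups not overlapping. Without symbols, 2 identifiers in each direction are printed. The rule also covered fixed genes, pathway lists and cell type markers, which need symbols and were not analysed here. Genes of the other sets were described after their values were seen. The members, gene rule and lists were chosen with earlier results of these data known. Alternatives were another pseudocount, filter, weighting, scaling and fit, a replicate block and single libraries left out.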

Additional observations from a re-analysis of the deposited data

Results flagged for a closer look

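For ENSRNOG00000012490, the direct test between the 2 upper doses passed in the main fit. The log2 difference of 40% E2 from 20% E2 was 1.51 (limma adjusted p = 0.0380, 0.00261 to 0.361 over the alternatives), and all 3 libraries at 40% E2 lay above all 3 at 20% E2. The gene was picked for its high 40% E2 values, so this non-overlap lends no support. The test passed in 10 of the 21 alternatives. Single genes were not screened for an outlying library, since each group held 3.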

How the results depend on the processing

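The 21 alternatives to the fit were compared result by result. The number of genes past the threshold against vehicle was 0 with all but 2 of them. With the 6 compared libraries alone it was 1, over all genes and over well-counted genes, the 483-base model. With 1 library left out it was 0 to 1 over all genes and 0 over well-counted genes. The number of well-counted genes at an unadjusted p under 0.05, 584 by limma-trend, was 462 to 624 under the other settings and 456 to 892 with 1 library left out, lowest without vehicle replicate 1 and highest without vehicle replicate 3. The cause was not tested. For ENSRNOG00000012490 at 40% against 20% E2, the 1 call among the 4 named genes became 0 with no filter on low values (adjusted p = 0.0992), with the replicate block (0.193), and without vehicle replicate 1 or 3, 5% E2 replicate 1 or any 1 of the 20% or 40% E2 libraries. With 1 library left out the count was 0 to 1. ENSRNOG00000014092 at 40% against 20% E2 ran from −0.0051 to 0.106 with 1 library left out, changing sign without 40% E2 replicate 2. The 4 named genes kept their sign against vehicle in all 21 alternatives, and none passed there. The replicate block gave 0 calls against vehicle, with 624 well-counted genes at an unadjusted p under 0.05. Same-numbered vehicle and 40% E2 libraries had correlations of 0.154, 0.0219 and −0.0401 in their deviations. Differently numbered ones ran from −0.116 to 0.114. So few values cannot decide whether the numbers pair the libraries. Leaving out 5% or 20% E2 libraries, or models under 200 bases, was chosen after seeing the data. Alternatives for gene lists were not run, since no identifier matched a symbol. Depth limits short models: 110 well-counted genes averaged under 30 fragments per library.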
